A study of Mus musculus with 8 samples.

Results

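The genes for taking up, activating and oxidising fatty acids and for using ketone bodies and acetate were followed in brain endothelial cells of mouse pups. The 37 member genes, of 25700 in the count tables, were chosen by symbol as a list of the pathway's genes, and all 37 had a row. Cells were sorted by flow cytometry from brains of C57BL/6 pups at postnatal day 6, straight into lysis buffer. The KO group (n = 4) carried the genotype GLUT1EC-/-, a loss of the glucose transporter GLUT1 in endothelial cells, and the WT group (n = 4) was wild type. Which allele and which driver gave the deletion is not given in the sources used here. The comparison asks how the endothelial transcriptome differs between the genotypes.

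Total counts were 20.9 to 40.8 M (M for mega) in KO and 25.9 to 114.0 M in WT. Genes detected numbered 15756 to 17082, but only 13624 in KO pup 1. By the sample titles the 4 KO pups and WT pup 5 shared a cage and WT pups 1 to 3 shared another. A second set of labels places WT pup 3, not WT pup 5, with the KO pups, so cage and genotype can hardly be told apart under either reading. The protocol text calls the WT pups littermates. Levels are given as CPM, counts scaled by TMM to a common library total. The GLUT1 transcript, Slc2a1, averaged 3044 ± 664 CPM in WT and 1507 ± 89.6 CPM in KO (mean ± SD over 4 pups), a log2 fold change, here and throughout KO over WT, of -1.01 (adjusted p = 0.00619, edgeR). That call was lost with cage by the second labels as a term (-0.89, adjusted p = 0.331) and with pup number as a block (-0.91, adjusted p = 0.0931). With cage by title as a term the log2 fold change was -1.31. Each cage term compares the KO pups with 1 WT pup alone, WT pup 3 by the second labels and WT pup 5 by title. The block by pup number takes nothing from KO pup 4 and WT pup 5, which have no partner of the same number. The 10 endothelial markers summed to 13789 to 15425 CPM in KO and 14629 to 15693 CPM in WT. Of the 10, 4 had log2 fold changes above 0 and 6 below, and 0 had an adjusted p under 0.05. Tek at -0.30 (edgeR adjusted p = 0.211) and Emcn at 0.20 (edgeR adjusted p = 0.316) had the smallest p. The pups of both groups did not overlap for 3 of the 10, against 7.19% of all tested genes.

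Long-chain fatty acids reach endothelial cells bound to albumin or are freed from lipoproteins at the vessel wall. Inside the cell they are bound by carrier proteins, activated to acyl-CoA, passed into mitochondria by the carnitine shuttle and shortened in cycles of beta oxidation, whose electrons enter the respiratory chain through the electron transfer flavoprotein. Ketone bodies and acetate feed the same acetyl-CoA pool, and blood ketone bodies are an established fuel of the suckling rodent brain, which they enter across its endothelium.

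No member passed the test in either direction. After a filter on low counts 36 of the 37 members were tested with edgeR's quasi-likelihood test over 14154 genes, and 0 had an adjusted p under 0.05, where 0.389% of all tested genes were called. At an unadjusted p under 0.05 there were 5 members, against 11.1% of all tested genes: Cpt1c, Cd36, Acsl5 and Acadl with higher and Slc27a1 with lower values in KO. The pups of both groups did not overlap for 2 members, Cpt1c and Acsl5, against 7.19% of all tested genes. Log2 fold changes ran from -0.29 to 1.12 with a median of 0.08, where the median of all tested genes was 0.00. They were above 0 for 31 members and below 0 for 5, against 7125 and 7029 of the 14154 tested genes. Many of the 31 were near 0, and some changed sign under the alternatives. In a sorted population, fewer cells of a type and less RNA per cell cannot be told apart.

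The data bounded most members closely. For 25 of the 36 the 95% interval of the fold change lay within 1.5-fold in both directions, against 58.3% of all tested genes. Where the mean log2 CPM was 4 or more, the share was 25 of 29 members (86.2%) and 7282 of 8294 genes (87.8%). All 11 beta oxidation enzymes and all 3 electron transfer genes were within this bound, and of the 5 ketone and acetate genes 1, Acat1, was.

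**Figure D1:**
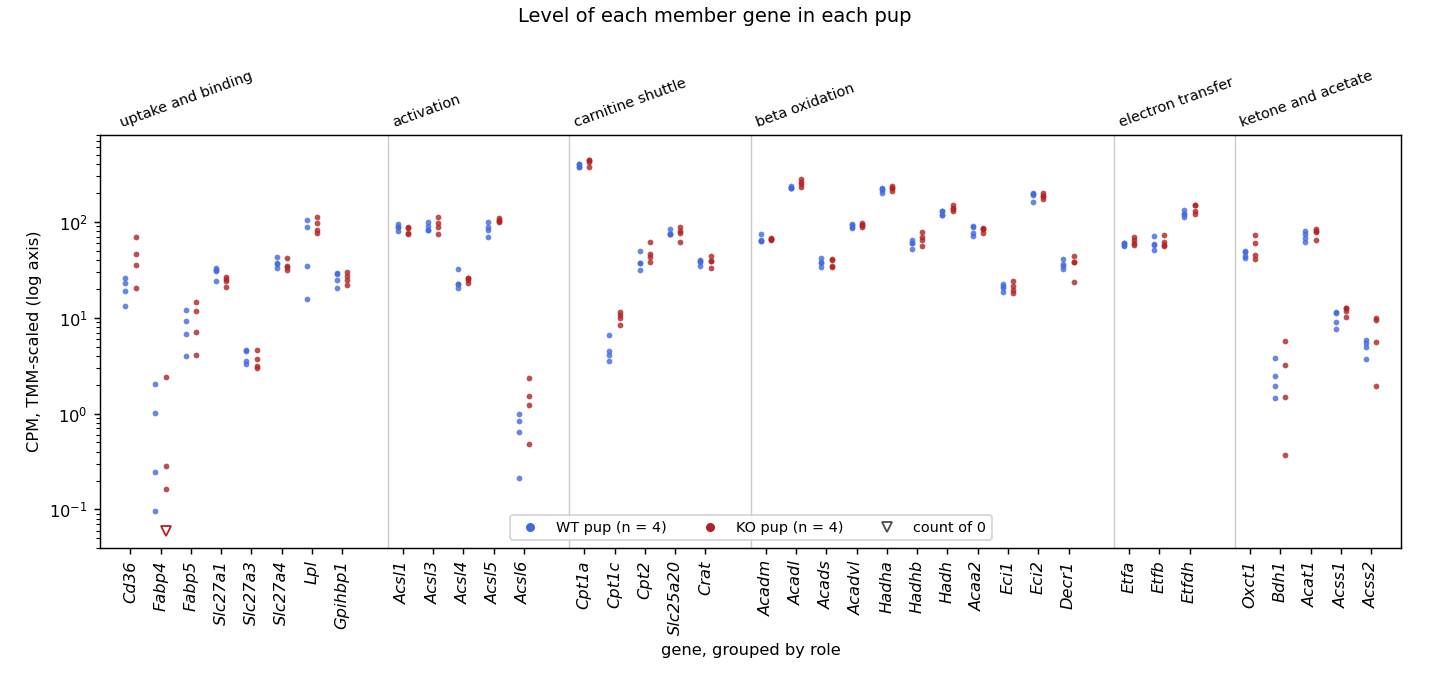
Level of each of the 37 members in each pup, in TMM-scaled CPM on a log axis, with genes grouped by role. Blue points are the 4 WT pups, red points the 4 KO pups, and an open triangle marks a count of 0. The beta oxidation genes of both genotypes lie on top of each other, while Cpt1c is the member whose groups are farthest apart among those that do not overlap.

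**Figure D2:**
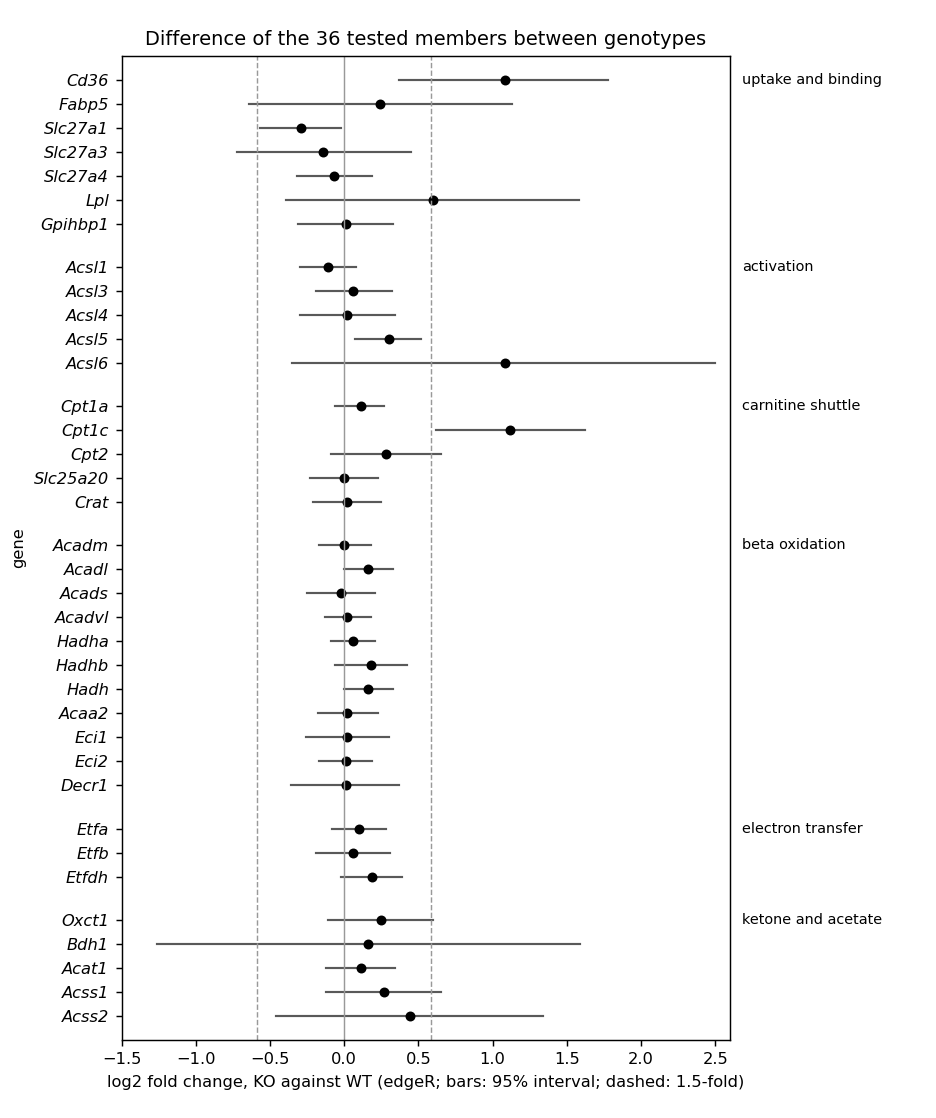
Log2 fold change of KO against WT for the 36 tested members, with 95% intervals from the edgeR fit and dashed lines at 1.5-fold. The intervals of 25 members lie between the dashed lines, and the widest belong to genes at low level such as Acsl6 and Bdh1.

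The carnitine shuttle held the clearest difference, and it lay in a minor isoform. Carnitine palmitoyltransferase 1 makes the acylcarnitine that crosses into mitochondria: Cpt1a is the liver-type isoform of the outer mitochondrial membrane, and Cpt1c is the brain-type isoform, found at the endoplasmic reticulum of neurons and of low catalytic activity. The RefSeq start regions (GRCm38.p6, 250 bases before to 50 after the start) of Cpt1a, Cpt1c and Acsl5 are printed because Cpt1a is the main isoform of its family and the other two are the members whose pups did not overlap. Capitals mark AGGTCA, the half-site bound by nuclear receptors such as the PPAR and RXR families, and GGGCGG, the GC box bound by Sp1, on either strand (TGACCT and CCGCCC when read on the printed strand). Each is written 5′ to 3′ along its gene, Cpt1a from chr19:3323051-3323350 (plus strand), Cpt1c from chr7:44974802-44975101 (minus strand) and Acsl5 from chr19:55253119-55253418 (plus strand).
Cpt1a: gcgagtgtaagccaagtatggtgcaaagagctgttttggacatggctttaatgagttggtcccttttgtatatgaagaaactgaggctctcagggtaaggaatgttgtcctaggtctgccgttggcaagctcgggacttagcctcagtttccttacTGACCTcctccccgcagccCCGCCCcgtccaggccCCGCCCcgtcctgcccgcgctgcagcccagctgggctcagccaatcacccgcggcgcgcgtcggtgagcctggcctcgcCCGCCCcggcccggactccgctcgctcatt
Cpt1c: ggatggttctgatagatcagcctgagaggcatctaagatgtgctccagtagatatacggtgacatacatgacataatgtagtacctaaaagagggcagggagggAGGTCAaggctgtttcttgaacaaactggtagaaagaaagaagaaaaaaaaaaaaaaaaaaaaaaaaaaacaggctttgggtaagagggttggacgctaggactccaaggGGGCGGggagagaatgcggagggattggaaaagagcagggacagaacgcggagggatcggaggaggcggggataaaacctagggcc
Acsl5: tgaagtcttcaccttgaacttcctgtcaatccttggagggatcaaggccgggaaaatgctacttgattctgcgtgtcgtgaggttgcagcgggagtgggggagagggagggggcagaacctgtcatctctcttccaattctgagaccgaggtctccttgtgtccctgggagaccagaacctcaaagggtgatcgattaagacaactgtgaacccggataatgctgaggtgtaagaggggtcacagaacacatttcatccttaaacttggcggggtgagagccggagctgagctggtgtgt

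The Cpt1a window held 1 AGGTCA, at 94 bases before the start, and 3 copies of GGGCGG. In the Cpt1c window AGGTCA began at position -146 and GGGCGG at position -36, counted from the start. The Acsl5 window held neither motif. RefSeq gave start regions for 29 of the members, 35 regions in all. AGGTCA stood in 6 of these 35 (17.1%), against 16.3% of all 32851 regions and 12.4% of the 13796 regions of tested genes. AGGTCA repeated after 1 base stood in 0 of 35 and in 13 of all regions. GGGCGG stood in 27 of 35 (77.1%), against 35.7% of all regions and 61.0% of those of tested genes. The p53 half-site stood in 4 of 35 (11.4%), against 8.36% and 7.02%, and in none of the 3 windows printed. Member regions held a median of 16 CpG dinucleotides, against 7 for all regions and 20 for those of tested genes. These are matches of letters, on both strands and with no rule against overlap.

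Cpt1c (ENSMUSG00000007783; GRCm38 chromosome 7, 44959372 to 44974851, minus strand) measured 11.6, 9.99, 8.46 and 10.6 CPM in KO pups 1 to 4 and 4.53, 4.03, 3.53 and 6.67 CPM in WT pups 5, 1, 2 and 3. Every KO pup lay above every WT pup, and WT pup 3 was the highest of its group. The log2 fold change was 1.12 (SE 0.23, 95% interval 0.62 to 1.62; edgeR adjusted p = 0.0737), or 2.17-fold. The call depended on the test: DESeq2 gave 1.11 with an adjusted p of 0.000982 (2.22% of genes called), limma-voom 1.28 with 0.0265 (0.509% called), and edgeR without WT pup 3 1.34 with 0.0276 (0.403% called). Over all 18 alternatives the log2 fold change ran from 0.60, with cage by the second labels as a term, to 1.34, and the highest adjusted p was 0.9995. The cage term by the second labels compares the KO pups with WT pup 3 alone. An antisense transcript on the opposite strand overlaps 6.53% of the exon length of Cpt1c. Whether the counting used strand is not stated in the labels, so the reads of this transcript and of Cpt1c cannot be told apart.

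Neuronal markers were measured beside Cpt1c. The 10 markers summed to 37.5, 31.2, 33.6 and 47.0 CPM in KO pups 1 to 4 and to 43.4, 29.7, 29.1 and 35.1 CPM in WT pups 5, 1, 2 and 3, so the groups overlapped. Of the 7 tested, 5 had log2 fold changes above 0 and 2 below, with a median of 0.28, and 0 were called. Stmn2 was at -0.46 (adjusted p = 0.534) and Map2 at 0.55 (adjusted p = 0.599), and these had the smallest p of the list. Snap25, Syt1 and Slc17a7, named after their values were seen, missed the filter and were at 0 in KO pup 1 (Snap25 and Syt1) or in WT pup 1 (Slc17a7). The part of neurons in the Cpt1c value was not tested.

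Cpt1a carried nearly all of the family's signal in both genotypes. It measured 440, 439, 420 and 369 CPM in KO pups 1 to 4 and 397, 403, 373 and 377 CPM in WT pups 5, 1, 2 and 3. The groups overlapped, and KO pup 4 was the lowest of all 8. Its fold change was 0.11 on the log2 scale (95% interval -0.06 to 0.27), which bounds a difference to between 0.96-fold and 1.21-fold. Per kilobase of exon, Cpt1a made up 93.2% ± 1.94 of the summed level of Cpt1a, Cpt1b and Cpt1c in KO and 95.4% ± 0.895 in WT (SD, n = 4 each). The share of Cpt1c on this scale was 3.10% ± 0.444 in KO and 1.58% ± 0.488 in WT. Cpt1b, the muscle-type isoform, was examined after its values were seen and held 3.72% ± 1.78 in KO and 2.98% ± 0.939 in WT. Its value is uncertain, since 81.38% of its exon length is shared with a readthrough gene on the same strand. Exon length counts each base found in any annotated exon of a gene. Levels per kilobase, here and below, therefore depend on which isoforms are annotated.

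**Figure D3:**
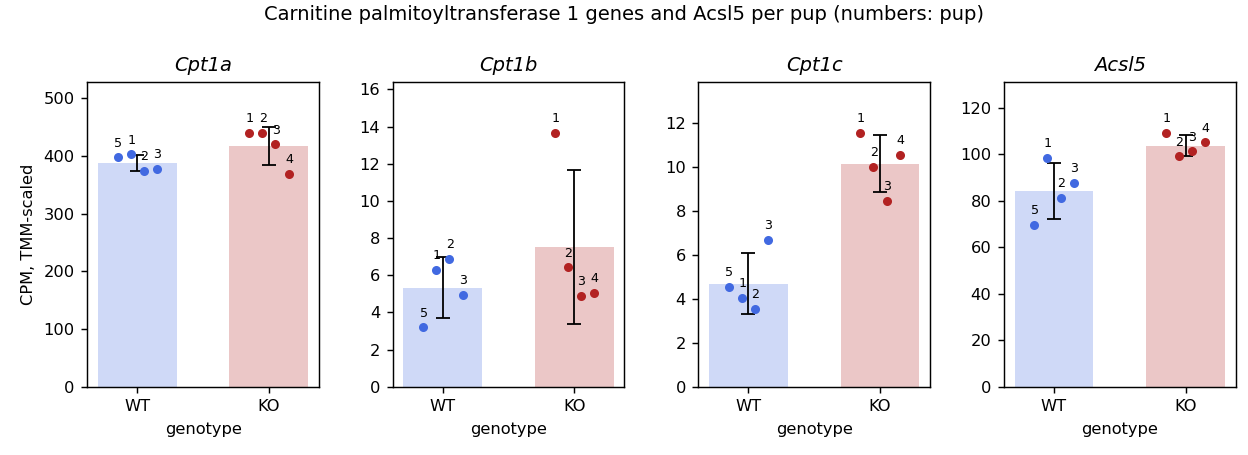
Levels of Cpt1a, Cpt1b, Cpt1c and Acsl5 in TMM-scaled CPM, with 1 point per pup labelled by its number, bars at the group mean and error bars of 1 SD (n = 4). All KO points lie above all WT points for Cpt1c and, by a narrow margin at WT pup 1, for Acsl5, while those of Cpt1a and Cpt1b overlap.

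The rest of the shuttle was close between genotypes. Cpt2, which remakes acyl-CoA on the matrix side, measured 62.3, 45.7, 37.9 and 42.8 CPM in KO pups 1 to 4 and 49.4, 31.5, 36.7 and 37.5 CPM in WT pups 5, 1, 2 and 3. KO pup 1 and WT pup 5, which share a cage by title, were the highest of their groups. Its log2 fold change was 0.28 (95% interval -0.09 to 0.65). With cage by title as a term, which compares the KO pups with WT pup 5 alone, it was -0.07. Slc25a20, the carnitine-acylcarnitine carrier, was at 76.7 ± 10.8 CPM in KO and 76.7 ± 5.01 CPM in WT, a log2 fold change of 0.00 (95% interval -0.23 to 0.23). Crat, carnitine acetyltransferase, was at 0.02 (95% interval -0.21 to 0.25).

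Among the 5 long-chain acyl-CoA synthetases, which activate fatty acids, only Acsl5 had pups that did not overlap between groups. Over all tested genes this held for 7.19%. Acsl5 (ENSMUSG00000024981; GRCm38 chromosome 19, 55251938 to 55297720, plus strand) encodes a synthetase of mitochondria and endoplasmic reticulum. It measured 109, 99.1, 101 and 105 CPM in KO pups 1 to 4 and 69.9, 98.7, 81.2 and 87.8 CPM in WT pups 5, 1, 2 and 3. The groups were separated only by the gap between KO pup 2 and WT pup 1. On the log2 scale the groups differed by 0.30 (SE 0.10, 95% interval 0.07 to 0.52; edgeR adjusted p = 0.282), and it was not called under any alternative. Within the KO pups' cage by title, which leaves WT pup 5 as the only WT pup, it was 0.57. Zdhhc6 overlaps 8.31% of its exon length on the opposite strand.

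The other synthetases split between steady and barely detected genes. Acsl1, the synthetase best known from fat and liver, had a log2 fold change of -0.11 (95% interval -0.30 to 0.08). Acsl3, linked to lipid droplets, was at 0.06 (95% interval -0.19 to 0.32). Acsl4, which prefers arachidonic acid, was at 0.02 (95% interval -0.30 to 0.34). Acsl6, the brain and neuronal form, measured 0.48, 2.36, 1.23 and 1.53 CPM in KO pups 1 to 4 and 0.985, 0.215, 0.637 and 0.84 CPM in WT pups 5, 1, 2 and 3. Its fold change of 1.08 on the log2 scale had an interval of -0.35 to 2.50, wide enough to hold both no difference and a large one. Per kilobase of exon, Acsl3 and Acsl5 led the family, with 38.4% ± 4.56 and 38.9% ± 3.33 of its summed level in KO and 40.1% ± 2.19 and 34.1% ± 2.81 in WT. Acsl1 followed with 14.1% ± 1.17 in KO and 16.6% ± 1.86 in WT, and Acsl6 held at most 0.406% in any pup.

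Of the 8 uptake and binding genes, 7 were tested, 4 with log2 fold changes above 0 and 3 below, around a median of 0.01. Cd36 (ENSMUSG00000002944; GRCm38 chromosome 5, 17781690 to 17888801, minus strand) encodes a membrane receptor for long-chain fatty acids and modified lipoproteins, present on endothelium of small vessels and on macrophages. It measured 20.5, 35.0, 69.7 and 46.0 CPM in KO pups 1 to 4 and 18.8, 23.2, 13.4 and 26.0 CPM in WT pups 5, 1, 2 and 3. KO pups 2, 3 and 4 lay above all WT pups, and KO pup 1 lay among them. The log2 fold change was 1.08 (SE 0.32, 95% interval 0.37 to 1.78; edgeR adjusted p = 0.226). It was 0.73 without KO pup 3 and 1.31 without KO pup 1, and it was not called under any alternative.

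Markers of microglia and macrophages moved with Cd36 within the KO group. The 12 markers, all tested and all detected in every library, summed to 761, 1147, 2015 and 1529 CPM in KO pups 1 to 4, the same order as Cd36. In WT pups 5, 1, 2 and 3 they summed to 1341, 1043, 780 and 1183 CPM, and WT pup 5, with the highest sum, had the second lowest Cd36. All 12 markers had log2 fold changes above 0, with a median of 0.24, and 0 were called. The smallest p values were those of Tyrobp, an adaptor of myeloid receptors, at 0.51 (adjusted p = 0.370), and P2ry12, a microglial purine receptor, at 0.64 (adjusted p = 0.434). The part of these cells in the Cd36 value was not tested.

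**Figure D4:**
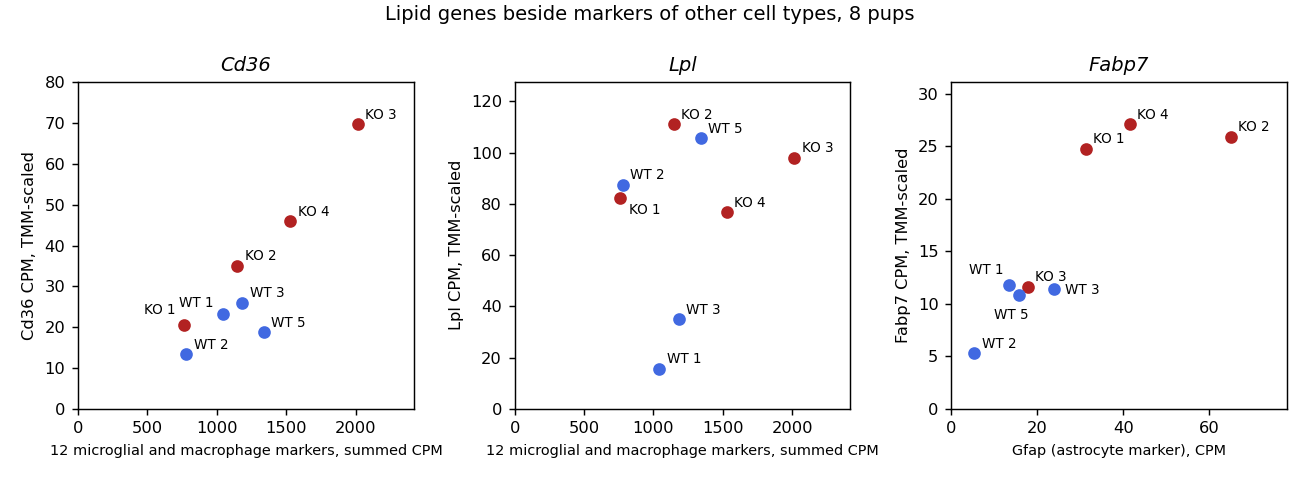
Cd36 and Lpl against the summed CPM of 12 microglial and macrophage markers, and Fabp7 against the astrocyte marker Gfap, with 1 point per pup (red KO, blue WT; linear axes in TMM-scaled CPM). KO pup 3 is the highest for both Cd36 and the microglial sum, and Lpl shows no such order. The 3 KO pups with the most Gfap are the 3 with the most Fabp7. Gfap is the astrocyte marker with the smallest p, and Gja1, the most abundant, had a log2 fold change of -0.23. All 8 astrocyte markers summed to 328 to 428 CPM in KO and 337 to 399 CPM in WT.

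The fatty acid transport proteins, which couple uptake to activation, did not pass the test. Slc27a1 measured 20.7, 24.4, 26.4 and 25.2 CPM in KO pups 1 to 4 and 31.4, 32.6, 24.1 and 30.5 CPM in WT pups 5, 1, 2 and 3. WT pup 2 lay among the KO pups, and the other WT pups lay above them all. The log2 fold change was -0.29 (SE 0.13, 95% interval -0.57 to -0.02; edgeR adjusted p = 0.416). Slc27a4 was at -0.07 (95% interval -0.32 to 0.19) and Slc27a3, at 3.61 ± 0.770 CPM in KO and 3.95 ± 0.655 CPM in WT, was at -0.14 (95% interval -0.72 to 0.45). Per kilobase of exon, Slc27a4 held 58.9% ± 3.38 of the summed level of these 3 genes in KO and 55.9% ± 2.48 in WT, ahead of Slc27a1 with 30.8% ± 4.74 and 33.7% ± 2.25.

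Lipoprotein lipase and its anchor differed in how steady they were. Lpl, the enzyme that frees fatty acids from lipoproteins, measured 82.4, 111, 98.0 and 76.7 CPM in KO pups 1 to 4 and 106, 15.7, 87.5 and 35.0 CPM in WT pups 5, 1, 2 and 3. WT pups 1 and 3 lay far below the other 6 pups, which spanned 76.7 to 111 CPM. The log2 fold change was 0.60 (SE 0.45, 95% interval -0.39 to 1.58). With cage by title as a term, which compares the KO pups with WT pup 5 alone, it was -0.20. Gpihbp1, which holds the enzyme on the luminal face of capillary endothelium, was at 25.8 ± 3.48 CPM in KO and 25.6 ± 4.15 CPM in WT, a log2 fold change of 0.01 (95% interval -0.31 to 0.33).

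The fatty acid binding proteins among the members were at low level. Fabp5 ranged from 4.13 to 14.7 CPM in KO and from 3.98 to 12.1 CPM in WT, and its log2 fold change of 0.24 had an interval of -0.64 to 1.13. Fabp4, a carrier typical of peripheral capillaries and fat, was the member that missed the filter. It measured 2.40, 0, 0.163 and 0.287 CPM in KO pups 1 to 4 and 1.02, 0.0954, 2.03 and 0.244 CPM in WT pups 5, 1, 2 and 3. The count of 0 in KO pup 2 allows up to 0.124 CPM (3 counts, counting error only), and the values of both groups spread over the same range.

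The 11 enzymes of mitochondrial beta oxidation did not differ by more than 1.5-fold by their 95% intervals. Their log2 fold changes lay between -0.02 and 0.18 around a median of 0.02, and 10 were above 0. Summed over the 11 genes the level was 1220, 1220, 1232 and 1153 CPM in KO pups 1 to 4 and 1145, 1119, 1137 and 1176 CPM in WT pups 5, 1, 2 and 3. KO pups 1 to 3 were above all WT pups on this sum and KO pup 4 was within their range.

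The acyl-CoA dehydrogenases take the first step of each cycle and differ in the chain length they prefer. Acadl, for long chains, measured 281, 248, 258 and 232 CPM in KO pups 1 to 4 and 224, 223, 238 and 224 CPM in WT pups 5, 1, 2 and 3. Of the KO pups, only pup 4 lay under the highest WT pup. Its groups differed by 0.16 on the log2 scale (SE 0.07, 95% interval 0.00 to 0.33; edgeR adjusted p = 0.446). Per kilobase of exon it was the most abundant member, at 113 ± 3.56 CPM per kb in WT, the 97.5th percentile of tested genes, and at 127 ± 10.3 CPM per kb in KO. It held 65.2% ± 1.84 of the summed level of the 4 dehydrogenases in KO and 62.8% ± 0.968 in WT on that scale. Acadm, for medium chains, was at 0.00 (95% interval -0.17 to 0.18), Acads, for short chains, at -0.02 (95% interval -0.25 to 0.21) and Acadvl, for very long chains, at 0.02 (95% interval -0.13 to 0.18). The Acadvl value is uncertain, since 42.85% of its exon length overlaps Dvl2 on the opposite strand.

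The later steps showed the same closeness. Hadha and Hadhb encode the subunits of the mitochondrial trifunctional protein, which handles long chains, and were at 0.06 (95% interval -0.09 to 0.21) and 0.18 (95% interval -0.06 to 0.42). Hadh, which oxidises shorter hydroxyacyl chains, measured 140, 135, 151 and 130 CPM in KO pups 1 to 4 and 118, 130, 118 and 130 CPM in WT pups 5, 1, 2 and 3. The lowest KO pup and the highest WT pups were at nearly the same level. Its log2 fold change was 0.16 (SE 0.07; edgeR adjusted p = 0.450). Acaa2, the thiolase, was at 0.02 (95% interval -0.18 to 0.23). The auxiliary enzymes for unsaturated chains, Eci1, Eci2 and Decr1, had log2 fold changes of 0.02, 0.01 and 0.01, and Decr1 was lowest in KO pup 1 at 23.5 CPM, against 32.0 to 43.9 CPM in the other 7 pups.

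Electrons from the dehydrogenases pass to the flavoprotein of Etfa and Etfb and on to its oxidoreductase, Etfdh. Etfdh measured 150, 151, 128 and 122 CPM in KO pups 1 to 4 and 120, 120, 133 and 111 CPM in WT pups 5, 1, 2 and 3. The groups overlapped at KO pups 3 and 4 and WT pup 2, and the log2 fold change was 0.19 (SE 0.09, 95% interval -0.02 to 0.39; edgeR adjusted p = 0.498). Etfa was at 0.10 (95% interval -0.08 to 0.28) and Etfb at 0.06 (95% interval -0.19 to 0.31). More than the other members, Etfb depends on how shared reads were assigned, since 53.01% of its exon length lies in Gm45233, a protein-coding gene on the same strand. The pups of both groups overlapped for each of the 3 genes.

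In the order of levels per kilobase of exon in WT, Acadl was followed by Acaa2 at 53.8 ± 6.15, Etfb at 51.1 ± 6.86 and Cpt1a at 50.7 ± 1.90 CPM per kb, which did not differ beyond their SD. Acadvl, Eci2 and Etfa came next at 33.8 ± 1.51, 33.5 ± 3.10 and 31.8 ± 1.03 CPM per kb. Cd36 was at 5.67 ± 1.54 CPM per kb, near the middle of all tested genes (51.3rd percentile), and Cpt1c at 0.837 ± 0.246 CPM per kb, the 19.5th percentile. Acsl6 was the lowest tested member at 0.0675 ± 0.0338 CPM per kb. The order differs in CPM, where Cpt1a led in WT at 387 ± 14.5, before Acadl at 228 ± 7.13 and Hadha at 215 ± 9.67. Hadha, with an exon length of 8730 bases, was at 24.7 ± 1.11 CPM per kb.

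With all libraries, the 5 genes of ketone and acetate use had log2 fold changes above 0, between 0.11 and 0.44 with a median of 0.25. None passed the test. Bdh1, Acat1 and Acss2 fell below 0 under at least 1 alternative, Bdh1 to -0.48 without KO pup 1. Oxct1, the enzyme that commits ketone bodies to oxidation, measured 41.2, 44.8, 60.3 and 72.3 CPM in KO pups 1 to 4 and 44.3, 41.9, 48.8 and 49.4 CPM in WT pups 5, 1, 2 and 3. KO pups 3 and 4 were above all WT pups, and KO pups 1 and 2 were not. For Oxct1 the log2 fold change was 0.25 (SE 0.16, 95% interval -0.11 to 0.60; edgeR adjusted p = 0.629). A transcript on the opposite strand overlaps 12.62% of its exon length.

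Bdh1, which interconverts the main blood ketone bodies, was low and scattered, at 5.66, 1.49, 0.368 and 3.18 CPM in KO pups 1 to 4 and 3.78, 1.93, 1.44 and 2.44 CPM in WT pups 5, 1, 2 and 3. The KO pups held both the highest and the lowest value of the 8, and the interval of the log2 fold change ran from -1.26 to 1.59. Acat1, the mitochondrial acetoacetyl-CoA thiolase, was at 76.9 ± 8.14 CPM in KO and 71.2 ± 7.54 CPM in WT (log2 fold change 0.11, 95% interval -0.12 to 0.34). Acss1, the mitochondrial acetyl-CoA synthetase, was at 0.27 (95% interval -0.12 to 0.65). Acss2, its cytosolic and nuclear counterpart, measured 1.92, 9.90, 5.64 and 9.53 CPM in KO pups 1 to 4 and at most 5.91 CPM in WT, so KO pup 1 was the lowest of the 8 and KO pups 2 and 4 the highest. Its log2 fold change of 0.44 had an interval of -0.46 to 1.34.

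The pathway was also described by 91 other genes, among them its regulators, transporters, peroxisomal enzymes and lipid stores. Of these 83 were tested, with a median log2 fold change of 0.03, and 0 were called, where 0.389% of all tested genes were. At an unadjusted p under 0.05 there were 6 (4 higher and 2 lower in KO), against 11.1% of all tested genes. Fabp7, Acaca, Phyh and Slc16a7 were the 4 and Rxra and Acaa1a the 2. The pups of both groups did not overlap for 4 of the 83, against 7.19% of all tested genes. These were Rxra, Acaa1a, Slc16a7 and Abcd3, the last of which was named after its values were seen and had a log2 fold change of 0.08. For 53 of the 83 the 95% interval lay within 1.5-fold, against 58.3% of all tested genes. The smallest p was that of Fabp7, the fatty acid binding protein of radial glia and astrocytes. Fabp7 measured 24.8, 25.9, 11.6 and 27.1 CPM in KO pups 1 to 4 and 10.8, 11.8, 5.27 and 11.4 CPM in WT pups 5, 1, 2 and 3. KO pups 1, 2 and 4 lay above all WT pups and KO pup 3 at their upper end. The log2 fold change was 1.19 (SE 0.30, 95% interval 0.54 to 1.85; edgeR adjusted p = 0.148), and the gene was called with DESeq2.

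No astrocyte marker passed the test, and the list was uneven. Gfap measured 31.3, 65.1, 17.8 and 41.5 CPM in KO pups 1 to 4 and 15.8, 13.4, 5.41 and 23.9 CPM in WT pups 5, 1, 2 and 3, and Aldh1l1 had a log2 fold change of 1.03 (adjusted p = 0.269). Of the 8 astrocyte markers, all tested and none at 0 in any library, 6 had log2 fold changes above 0 and 2 below, with a median of 0.96 over the list, and 0 were called. At an unadjusted p under 0.05 (edgeR) there were 6 of the 8, 5 higher and 1 lower in KO, against 11.1% of all tested genes. All 8 summed to 328 to 428 CPM in KO and 337 to 399 CPM in WT. Gja1, the most abundant of them and named after its values were seen, was at -0.23. The other 7 summed to 107, 176, 80.5 and 125 CPM in KO pups 1 to 4 and to 86.0, 67.5, 46.2 and 89.9 CPM in WT pups 5, 1, 2 and 3. On that sum KO pups 1, 2 and 4 lay above all WT pups and KO pup 3 lay within their range. The part of these cells in the Fabp7 value was not tested. Per kilobase of exon, Fabp7 made up 84.2% ± 6.02 of the summed level of Fabp3, Fabp4, Fabp5 and Fabp7 in KO and 68.8% ± 3.41 in WT, with Fabp3 added to the family after its values were seen. These shares rest on exon length, which is 1250 bases for Fabp7 and 3567 for Fabp5. In CPM, not divided by length, Fabp7 and Fabp5 were at 9.83 ± 3.06 and 8.01 ± 3.45 in WT. In KO they were at 22.3 ± 7.19 and 9.41 ± 4.70 CPM.

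Among the regulators, Rxra, the partner receptor of the PPAR family, had the smallest p. It measured 53.2, 48.7, 54.6 and 55.5 CPM in KO pups 1 to 4 and 65.0, 68.6, 64.5 and 61.0 CPM in WT pups 5, 1, 2 and 3. All KO pups lay below all WT pups, and the log2 fold change was -0.29 (SE 0.08, 95% interval -0.46 to -0.12; edgeR adjusted p = 0.186). Acaca, which makes malonyl-CoA, was at 0.55 (adjusted p = 0.341), with KO pup 1 the highest at 28.6 CPM and KO pup 4 within the WT range. Rxrb was at -0.19 (adjusted p = 0.476). Ppard, Ppara and Pparg were named after their values were seen. Ppard was the PPAR gene with the highest level at 338 ± 35.7 CPM in KO and 358 ± 21.7 CPM in WT. Ppara was at 1.02 ± 0.671 and 0.648 ± 0.188 CPM, and Pparg at 2.15 ± 1.94 and 2.45 ± 0.957 CPM, with a count of 0 in KO pup 1, which allows up to 0.144 CPM.

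The genes that PPAR receptors are known to induce showed no called difference, 6 of the 8 tested lying above 0 and 2 below with a median of 0.04. Plin2, a lipid droplet coat protein, was at 0.19 (adjusted p = 0.590), Hilpda, an inhibitor of lipolysis, at -0.27 (adjusted p = 0.617) and Ucp2, a mitochondrial carrier, at 0.11 (adjusted p = 0.814). Peroxisomal Acaa1a, a thiolase, lay at 28.3 to 38.5 CPM in KO and 40.9 to 45.5 CPM in WT, with no overlap and a log2 fold change of -0.29 (adjusted p = 0.345). Its exons overlap Myd88 on the opposite strand over 6.57% of their length. Phyh, which starts the breakdown of phytanic acid, was at 0.56 (adjusted p = 0.375) and was highest in KO pup 1. Abcd2, a peroxisomal importer, was at 0.59 (adjusted p = 0.483).

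Ketone bodies enter cells through monocarboxylate transporters. Slc16a7, which encodes MCT2, measured 6.52, 7.25, 10.2 and 8.57 CPM in KO pups 1 to 4 and 5.75, 5.70, 4.10 and 5.99 CPM in WT pups 5, 1, 2 and 3. The KO pups lay above all WT pups, KO pup 1 by a small margin, and the log2 fold change was 0.60 (SE 0.21, 95% interval 0.13 to 1.07; edgeR adjusted p = 0.310). Slc16a1, which encodes MCT1, the transporter of the blood-brain barrier, was chosen after its values were seen. It was far more abundant, at 3315 ± 219 CPM in KO and 3422 ± 430 CPM in WT, and its log2 fold change of -0.05 had an interval of -0.25 to 0.16. Per kilobase of exon, Slc16a1 was at 773 CPM per kb in WT, the 99.7th percentile of tested genes.

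Mfsd2a, the barrier's transporter of lysophospholipids that carry docosahexaenoic acid, was also chosen after its values were seen. It was at 1195 ± 122 CPM in KO and 1272 ± 168 CPM in WT, with a log2 fold change of -0.09 (95% interval -0.32 to 0.14). The remaining lists held 0 called genes. Their smallest p values were those of Acsbg1, an acyl-CoA synthetase of glia, at 0.91 (adjusted p = 0.483), Acadsb, a branched-chain dehydrogenase, at -0.20 (adjusted p = 0.540), and Mgll, monoglyceride lipase, at 0.64 (adjusted p = 0.486).

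Transcripts of other cells were measured beside the endothelial ones, some at levels like those of endothelial markers. Rgs5, a mural marker named after its values were seen, averaged 1327 ± 283 CPM in KO and 931 ± 550 CPM in WT, and Ttr, a choroid plexus marker, 121 ± 113 and 866 ± 675 CPM. The 10 mural markers summed to 1776 to 2673 CPM in KO and 481 to 2705 CPM in WT, the lowest being WT pup 2. The 4 choroid plexus markers had log2 fold changes below 0, and they summed to 15.9 to 289 CPM against 362 to 1861 CPM, with Ttr at -2.84 (adjusted p = 0.193). The marker lists of mural, neuronal, oligodendrocyte, fibroblast, choroid plexus and erythroid cells held 0 called genes, and their part in the values of the members was not tested.

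Pups differed in how often they held the highest or lowest member value. KO pup 1, lowest in genes detected, was the highest of the 8 for 12 of the 36 tested members and the lowest for 7, where it was so for 22.1% and 27.6% of all tested genes. Without KO pup 1, 0 members were called, as was the case without KO pup 1 and WT pup 2 together. After rounding to 2 decimals, 29 of the 36 log2 fold changes were above 0.00, and under the alternatives between 21 and 31 were.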

How the data were processed

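Messenger RNA of 8 libraries, 1 per pup, was sequenced as stranded single-end reads of 100 bp at an intended 20 M reads per sample, per the labels' protocols. What the authors deposited were raw gene counts, as 1 table per library. STAR, featureCounts and GRCm38 were used, per the submitters' processing notes. Tool versions, annotation release and strand setting: not given in the sources used here.

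Symbols, coordinates and exon lengths came from GENCODE M21 for GRCm38, which named 25587 of 25700 identifiers. From these counts edgeR 4.0.16 (R 4.3.3) fitted genotype as the only term, after TMM scaling and filterByExpr (count minimum 10, total minimum 15). The quasi-likelihood F test was adjusted over 14154 genes by the Benjamini-Hochberg method at 0.05. SE and 95% intervals were derived from each F statistic, and log2 CPM used a prior count of 2. The code was tested on simulated counts. For Slc2a1 a two-sided exact permutation test over 70 assignments gave p = 0.0286, the smallest it allows.

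The members and lists were chosen with earlier results of these data known. Outside the members, the text names Slc2a1, up to 3 genes with the smallest p from each pathway list and up to 2 from each marker list; others are said to be chosen after their values were seen. Alternatives changed the test (DESeq2 1.42.0, limma-voom with limma 3.58.1), the scaling, the filter, the terms (cage, pup number) and the libraries. Same-numbered pups came from different cages by title and were not treated as pairs. Leaving out KO pup 1 and WT pup 2 together was chosen after seeing the data. 1 gene of the pathway lists is not reported here by name.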

Additional observations from a re-analysis of the deposited data

Results flagged for a closer look

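In 5 of 74 groups of 4 pups tested, a pup stood apart from the other 3 by Dixon's criterion, which chance gives in about 1 of 20 groups. Acsl4 was at 32.5 CPM in WT pup 2, against 20.6 to 22.6 CPM in the other WT pups. Acadm was at 74.1 CPM in WT pup 2, against 62.6 to 63.9 CPM. Acadl was at 238 CPM in the same pup, against 223 to 224 CPM. WT pup 2 was the library with the most counts. Slc25a20 was at 84.2 CPM in WT pup 3, against 73.9 to 74.7 CPM. Fabp4 was at 2.40 CPM in KO pup 1, against 0 to 0.287 CPM in the other KO pups.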

How the results depend on the processing

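Of 648 member fold changes recomputed under 18 alternatives, 639 kept their direction and their side of the threshold, apart from sign changes of values within 1 SE of 0, which numbered 94 over 17 genes. The members called higher were 0 in 15 alternatives, 1 with DESeq2 and 1 with limma-voom, and 0 to 1 when 1 pup was left out, each time Cpt1c. DESeq2 called 1 other pathway gene, Fabp7. The member median ran from 0.05 to 0.11. Lpl was at -0.20 and Cpt2 at -0.07 both with cage by title as a term and within the KO pups' cage by title, where the lone WT pup was assumed to vary like the KO pups. With cage by the second labels as a term Acat1 was at -0.05 and Slc2a1 at -0.89 (adjusted p = 0.331). Members whose groups did not overlap were 14 within the KO pups' cage by title (43.1% of all tested genes there), 12 without KO pup 1 and WT pup 2 together (17.6%), and 1 to 7 when 1 pup was left out (9.98% to 11.9%); fewer pups separate more easily. With pup number as a replicate block, which pairs pups of different cages, Acss2 was at -0.14, Slc2a1 at -0.91 (adjusted p = 0.0931), and 0 members were called. The causes were not tested. Precision was least for genes at a few CPM or below, such as Acsl6 and Bdh1.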
